A study of Danio rerio with 4 samples.

Results

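The 8 genes described here encode ligands and receptors of blood vessel growth in the zebrafish heart ventricle, measured by single-cell RNA sequencing at 4 stages of juvenile to adult growth. They were apln, its receptor genes aplnra and aplnrb, the angiopoietin genes angpt1 and angpt2a, the Tie receptor kinase genes tek and tie1, and esm1. The genes were chosen by name, with earlier results of these data known, and each name matched 1 of the 36351 gene rows of the count tables. Over all barcodes used, they held between 787 UMIs (esm1) and 33418 UMIs (tie1), where a UMI (unique molecular identifier) stands for 1 captured transcript.

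Apelin is a small secreted peptide that signals through G protein-coupled receptors. In zebrafish, aplnra and aplnrb are both receptors of this kind, and they act in the embryo in the migration of heart progenitors. In mammals, ANGPT1 is made mostly by cells around the vessel and activates the receptor kinase TEK (Tie2) on endothelial cells (ECs). ANGPT2 is released by ECs and can block that activation, while TIE1 has no well established ligand of its own and modulates TEK. ESM1, also called endocan, is a secreted proteoglycan that marks the leading cells of vessel sprouts in the mouse.

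The fish were wild-type zebrafish of the AB strain with no transgene or treatment, and the stages were named after coronary vessel development. Ventricles were pooled into 1 library per stage. The initiation pool held 25 ventricles of fish 10 mm long and 1.5 months old, the establishment pool 18 ventricles of fish of 14 mm and 2 months. The pool for expansion held 12 ventricles (18 mm, 2.5 months) and that for maturation 5 ventricles (28 mm, 8 months). All 4 libraries carried the same batch label. Since each stage was 1 pool, no difference between stages or cell classes has a replicate check and no p-value is given. Age, body size, pool and library cannot be told apart, and every interval below covers counting error only.

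Between 6663 and 12296 barcodes per library had at least 2500 UMIs and 600 genes, and 5798 to 10072 of them were assigned to 1 cell class by marker genes, none of which was 1 of the 8 genes. Coronary ECs, which line the vessels of the heart wall, numbered 4, 3, 91 and 239 over initiation, establishment, expansion and maturation. Endocardial ECs, which line the chamber, numbered 874, 1644, 5669 and 3045, and cardiomyocytes (CMs) 1063, 2066, 1988 and 961. Levels are UMIs per 1000000 UMIs of the class (CPM), given for the 30 pairs of class and library with at least 50 barcodes unless stated. In all 30 pairs, every gate marker in the files was higher in its own class than in the other classed barcodes. The same markers selected the barcodes, so this is no independent check of the classes. Libraries shared 9 to 32 barcodes per pair. Median UMIs per barcode were 13252 and 12517 in the first libraries and 5215 and 5524 at expansion and maturation. Red blood cells made up 3744 barcodes at initiation and 18 at maturation. Within a class, fewer cells that express a gene and less RNA per cell cannot be told apart from a summed level.

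**Figure D1:**
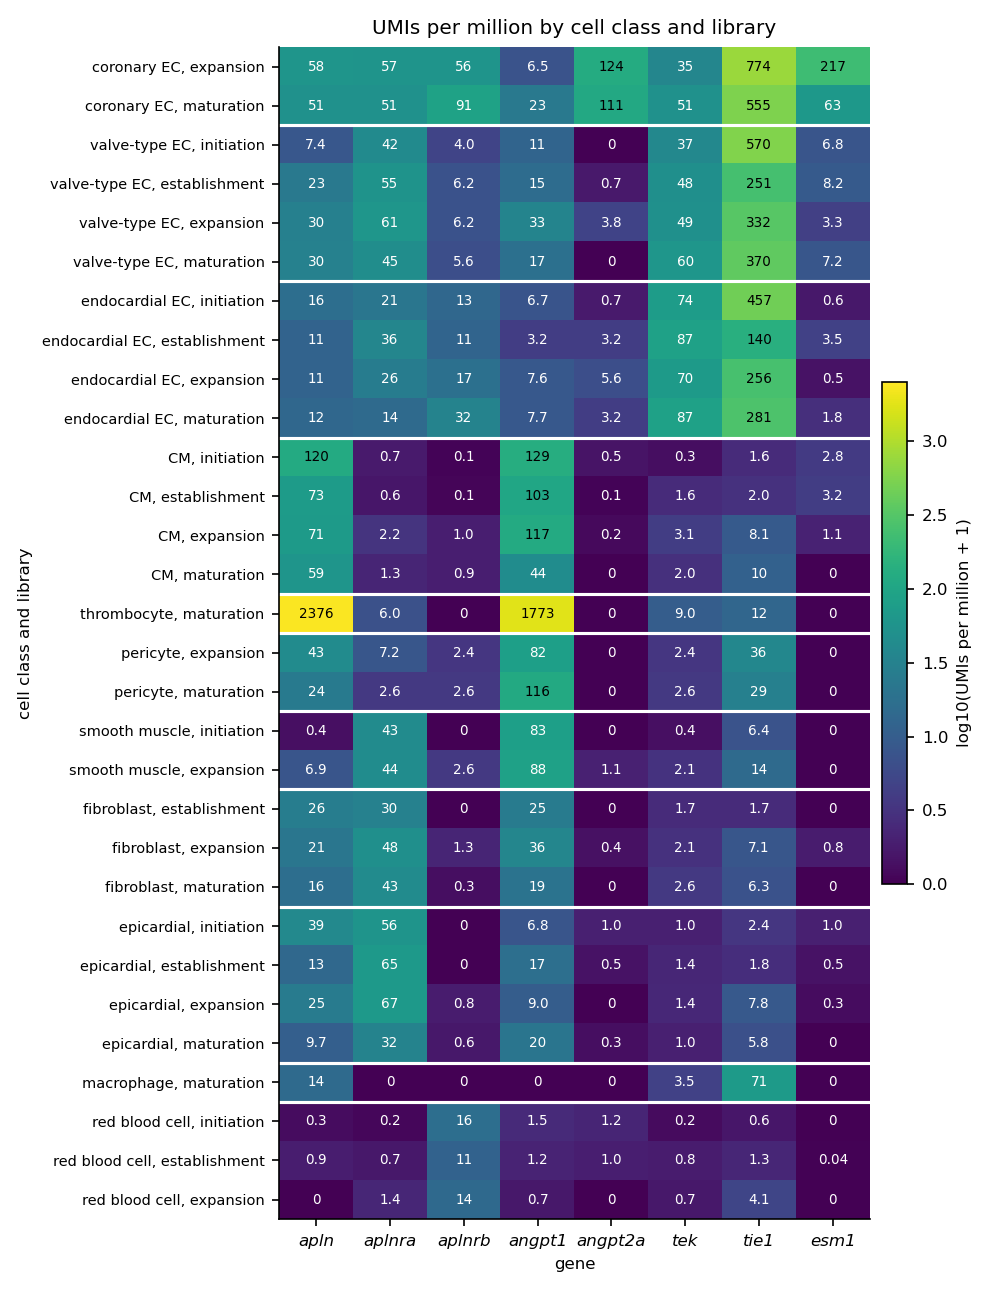
Each cell gives the level of 1 gene in 1 cell class and library, in CPM (printed value), with colour on a log10(CPM + 1) scale, for the 30 pairs of class and library with at least 50 barcodes. apln and angpt1 peak in thrombocytes at 2376 and 1773, angpt2a and esm1 in coronary ECs, and tie1 and tek lie in the 3 EC classes.

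Thrombocytes, the nucleated counterpart of platelets in fish, had the highest apln level of any class, and CMs came next among the classes with at least 50 barcodes in every library. At maturation the 90 thrombocyte barcodes held 788 apln UMIs, or 2376 CPM (95% Poisson interval 2213 to 2548). That level ranged more widely, from 1737 to 2889 CPM, over the alternative settings. The earlier libraries held only 14, 4 and 29 thrombocytes at initiation, establishment and expansion, with apln at 1248, 988 and 2208 CPM. All 4 values lay above those of every class with at least 50 barcodes in the library. After each barcode was thinned to 2500 UMIs, 100% of the 90 thrombocytes at maturation had an apln UMI (Clopper-Pearson interval from 96.0%), against 9.78% of CMs and 1.94% of endocardial ECs. Thrombocytes thus held 29.0% of the apln UMIs of that library in 90 of 7612 barcodes. A further 23.7% came from 70 barcodes that passed the thrombocyte gate together with that of another lineage and were placed in no class.

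In CMs, apln stood at 120, 72.7, 71.0 and 58.9 CPM over the 4 stages. The initiation value was the highest, with an interval of 114 to 127 CPM that overlapped none of the others, while the intervals at establishment and expansion overlapped. The maturation level was 45.5 CPM without the 17 CMs that held a UMI of itga2b, mpl or gp1bb, which are thrombocyte markers. Over the alternative settings that level ranged from 45.5 to 79.4 CPM. Coronary ECs had 58.2 CPM at expansion (44.7 to 74.4) and 51.3 CPM at maturation (42.4 to 61.5), intervals that overlapped those of the CMs of the same library. Epicardial cells had 38.8, 13.1, 24.9 and 9.70 CPM over the 4 stages. Pericytes had 43.3 and 23.7 CPM at expansion and maturation, and fibroblasts 26.4, 20.9 and 15.9 CPM from establishment on. All of these lay below the CM level of their library, and all but the epicardial value at maturation lay above the endocardial one. Endocardial ECs had 15.8, 11.2, 11.2 and 12.5 CPM, and valve-type ECs 7.42, 22.6, 29.6 and 30.3 CPM. Red blood cells had at most 0.87 CPM.

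angpt1, the Tie2 agonist gene, was also highest in thrombocytes, followed by CMs and the mural classes (smooth muscle cells and pericytes). Thrombocytes had 1773 CPM at maturation (1633 to 1922), with a UMI in 87.8% of barcodes thinned to 2500 UMIs. That level ranged from 1180 to 2156 CPM over the alternative settings. The 14, 4 and 29 thrombocytes of the earlier libraries had 2596, 2799 and 3263 CPM. In the same 90 thrombocytes of maturation, aplnrb, angpt2a and esm1 had no UMI, which allows at most 9.05 CPM at 3 counts, and aplnra, tie1 and tek had 2, 4 and 3 UMIs. apln and angpt1 thus stood apart from the other 6 genes, angpt2a among them, in this class.

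CMs had 129, 103, 117 and 44.4 CPM of angpt1 over the 4 stages, so that maturation lay below the other stages with no overlap of intervals. Pericytes had 81.8 CPM (56.6 to 114) at expansion and 116 CPM (84.0 to 155) at maturation. Smooth muscle cells had 83.0 CPM (72.4 to 94.6) at initiation and 88.4 CPM (75.5 to 103) at expansion. At expansion the interval of pericytes overlapped those of CMs and smooth muscle cells, and at maturation pericytes lay above CMs. Fibroblasts had 24.8, 35.5 and 18.5 CPM from establishment on, epicardial cells 6.79 to 19.7 CPM, valve-type ECs 11.4 to 33.4 CPM and endocardial ECs 3.15 to 7.75 CPM. Macrophages at maturation had no angpt1 UMI.

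CMs were also set apart by a list of primordial-type CM markers (acta2, hey2, actn1 and smoc1). Primordial CMs form a thin layer of the zebrafish ventricle wall. angpt1 was higher in CMs with a UMI of at least 2 of these markers than in CMs with 0 of them, in all 4 libraries. At initiation the 152 marker-positive CMs had 200 CPM (182 to 220) and the 668 marker-free CMs 97.7 CPM (90.6 to 105). Marker-positive CMs had 119 CPM and marker-free CMs 99.3 CPM at establishment, 148 and 106 CPM at expansion, and 104 and 31.6 CPM at maturation, where there were only 23 marker-positive barcodes. The marker-free CMs alone still had less angpt1 at maturation than in the earlier libraries. apln stood at 164 CPM in marker-positive and 103 CPM in marker-free CMs at initiation, at 85.2 and 69.2 CPM at establishment, and at 87.2 and 67.3 CPM at expansion. At maturation it stood at 50.1 CPM in marker-positive CMs, from 12 UMIs, and at 51.3 CPM in marker-free CMs. The median depth of marker-positive CMs was higher in every library, for example 12576 against 10020 UMIs at initiation and 9792 against 4888 UMIs at maturation, and its part in the difference was not tested.

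**Figure D2:**
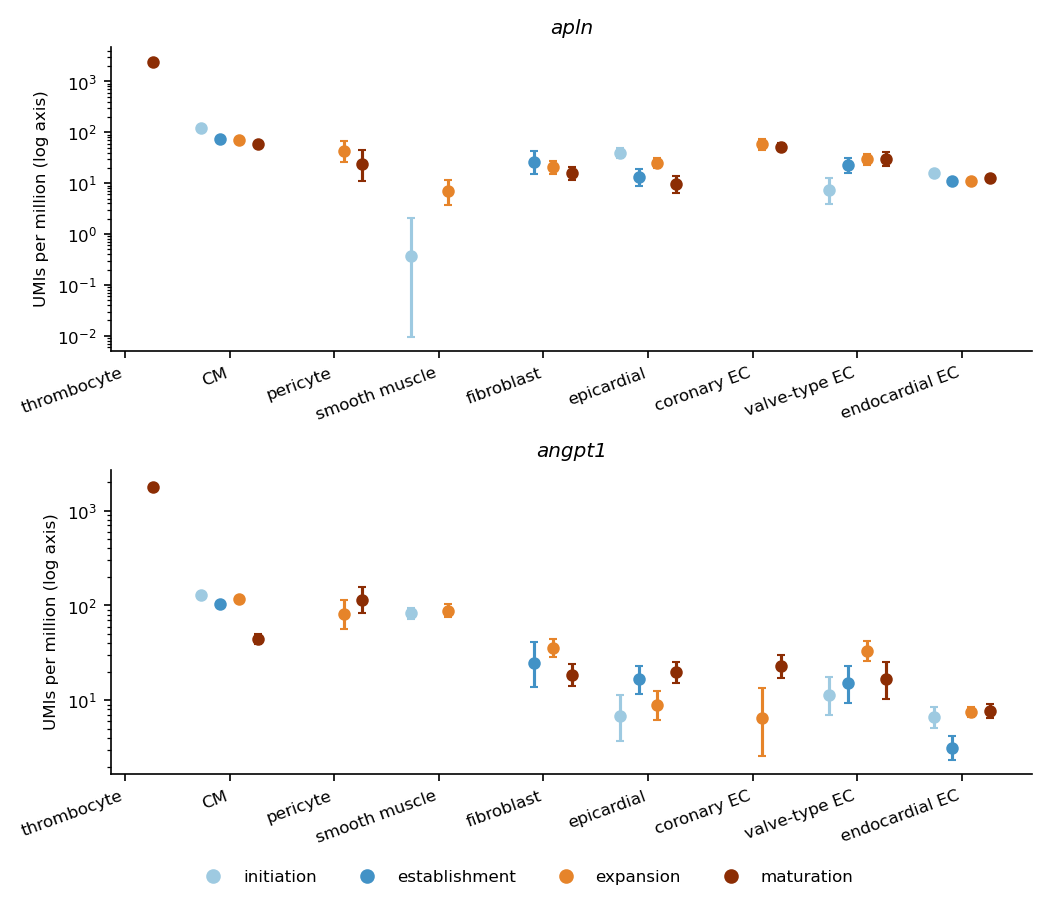
Levels of apln (top) and angpt1 (bottom) in CPM on a log axis, by cell class and stage, with 95% Poisson intervals, for classes with at least 50 barcodes in the library. Thrombocytes stand above all other classes, and the CM level of angpt1 at maturation (44.4) lies below the other 3 stages.

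angpt2a, the gene of the ligand that opposes angpt1 in mammals, was highest in coronary ECs. Coronary ECs had 124 CPM at expansion (104 to 147) and 111 CPM at maturation (97.7 to 126). The 4 and 3 coronary ECs of the earlier libraries held no angpt2a UMI, which at 3 counts of their 35896 and 15720 UMIs allows up to 83.6 and 191 CPM. Endocardial ECs had 0.74, 3.15, 5.60 and 3.16 CPM over the 4 stages. No other class of at least 50 barcodes was above 3.82 CPM, the value of valve-type ECs at expansion. In barcodes thinned to 2500 UMIs, 22.0% of coronary ECs at expansion had an angpt2a UMI, against 1.11% of endocardial ECs and 0.101% of CMs. Coronary ECs held 33.4% and 60.3% of the angpt2a UMIs of the expansion and maturation libraries. At initiation, 70 of the 100 angpt2a UMIs of the library fell in red blood cells, at 1.22 CPM.

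esm1 was also highest in coronary ECs, with a larger difference between the stages than angpt2a. Coronary ECs had 217 CPM at expansion (190 to 247) and 63.2 CPM at maturation (53.3 to 74.5). The expansion level rested on few cells, since 142 of its 235 UMIs came from 5 of the 91 barcodes and 49 from a single barcode. The share of thinned barcodes with an esm1 UMI was also higher at expansion, at 20.9% (13.1 to 30.7) against 9.62% (6.20 to 14.1) at maturation. Endocardial ECs had 0.64, 3.53, 0.46 and 1.84 CPM, valve-type ECs 6.85, 8.20, 3.34 and 7.18 CPM, and CMs 34, 93, 15 and 0 UMIs, at most 3.20 CPM. The esm1 level of valve-type ECs at maturation rested on 9 UMIs. It was 1.01 CPM without the barcodes that held a UMI of a thrombocyte marker (itga2b, mpl or gp1bb). Thrombocytes of that library had no esm1 UMI. Smooth muscle cells and pericytes had no esm1 UMI in any library with at least 50 barcodes.

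Among coronary ECs thinned to 2500 UMIs, esm1 was found in a larger share of the angpt2a-positive than of the angpt2a-negative barcodes at both stages. At maturation, 47 barcodes had an angpt2a UMI and 23 an esm1 UMI, and 10 had both, so that 21.3% of the angpt2a-positive and 6.77% of the angpt2a-negative barcodes had esm1. At expansion the counts were 20, 19 and 7 of 91 barcodes, or 35.0% against 16.9%. aplnra was found in 1 of the 20 angpt2a-positive barcodes at expansion and in 2 of the 47 at maturation. It was found in 11.3% and 10.4% of the angpt2a-negative barcodes, with 9 and 22 aplnra-positive barcodes in all. aplnrb was found in 2 of the 20 and 13 of the 47 angpt2a-positive barcodes, and in 18.3% and 17.7% of the angpt2a-negative barcodes. Barcodes are not replicates of a condition, and these shares describe 1 pool each.

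Of the receptor genes, aplnra was spread over ECs and stroma, while aplnrb was nearly limited to ECs and red blood cells. Coronary ECs had 57.3 and 50.8 CPM of aplnra at expansion and maturation. Epicardial cells had 56.3, 65.3, 66.6 and 32.0 CPM over the 4 stages, and valve-type ECs 41.7, 54.7, 60.6 and 45.5 CPM. Smooth muscle cells had 43.0 and 44.5 CPM, and fibroblasts 29.7, 48.1 and 43.0 CPM. The intervals of these 5 classes overlapped at expansion except that of epicardial cells (58.4 to 75.7), which lay above those of fibroblasts (39.7 to 57.7) and smooth muscle cells (35.5 to 55.1). Endocardial ECs had 20.7, 35.7, 25.7 and 14.0 CPM, below these classes of the same library except for fibroblasts at establishment. CMs had at most 2.20 CPM and pericytes 7.21 and 2.63 CPM.

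aplnrb was highest in coronary ECs, with 56.3 CPM at expansion (43.1 to 72.4) and 90.6 CPM at maturation (78.7 to 104). Endocardial ECs had 12.7, 11.4, 17.0 and 31.9 CPM over the stages, the last with an interval of 29.4 to 34.6 that overlapped none of the others. Valve-type ECs had 3.99 to 6.20 CPM. Epicardial cells, which carried aplnra at 32.0 CPM or more, had 0, 0, 3 and 2 aplnrb UMIs in the 4 libraries, at most 0.84 CPM. Red blood cells had 16.1, 10.6 and 13.5 CPM of aplnrb from initiation to expansion, from 922, 269 and 20 UMIs. At initiation they held 82.2% of the aplnrb UMIs of the library. In the same cells aplnra stood at 0.16 CPM and tie1, an EC gene, at 0.61 CPM. Thinned to 2500 UMIs, 3.93% of red blood cells had an aplnrb UMI, against 0 of 1063 CMs and 0 of 148 epicardial cells of that library. With globin, mitochondrial and CM marker UMIs left out of the totals, the aplnrb level of these red blood cells was 35.5 CPM.

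The Tie receptor genes tek and tie1 were both genes of ECs, with opposite order among the EC classes. tek was highest in endocardial ECs, at 74.0, 86.8, 69.9 and 87.5 CPM over the 4 stages. Valve-type ECs had 37.1, 47.8, 49.2 and 59.8 CPM, and coronary ECs 35.1 and 50.8 CPM at expansion and maturation. The intervals of coronary and valve-type ECs overlapped in both libraries, and both lay below that of endocardial ECs. No other class of at least 50 barcodes was above 9.05 CPM, the value of thrombocytes at maturation from 3 UMIs.

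tie1 was highest in coronary ECs, with 774 CPM at expansion (722 to 828) and 555 CPM at maturation (525 to 586). Valve-type ECs had 570, 251, 332 and 370 CPM and endocardial ECs 457, 140, 256 and 281 CPM over the stages. In each library valve-type ECs lay above endocardial ECs with no overlap of intervals, and both classes were lowest at establishment. Without barcodes that held a UMI of itga2b, mpl or gp1bb, the initiation levels were close, at 454 CPM in valve-type and 432 CPM in endocardial ECs. From establishment on, valve-type ECs then had 252, 325 and 352 CPM and endocardial ECs 138, 252 and 272 CPM. The tek level of endocardial ECs at establishment was within the range of its other stages. Pericytes had 36.1 and 28.9 CPM at expansion and maturation. Macrophages had 71.0 CPM of tie1 at maturation from 40 UMIs in 65 barcodes, with a median of 0 for the pan-endothelial marker list. CMs had 1.64, 2.03, 8.08 and 10.3 CPM of tie1. Barcodes of 10 to 100 UMIs, which hold mainly free RNA, had 19.6, 13.5, 60.0 and 39.9 CPM of tie1 in the same libraries. With the expected free RNA subtracted the CM level was 0 at initiation and 0.46 CPM at maturation. In CMs the share of free RNA was set from pan-endothelial and endocardial marker UMIs. An EC gene such as tie1 thus falls toward 0 in CMs by construction, and the source of its CM UMIs was not tested.

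**Figure D3:**
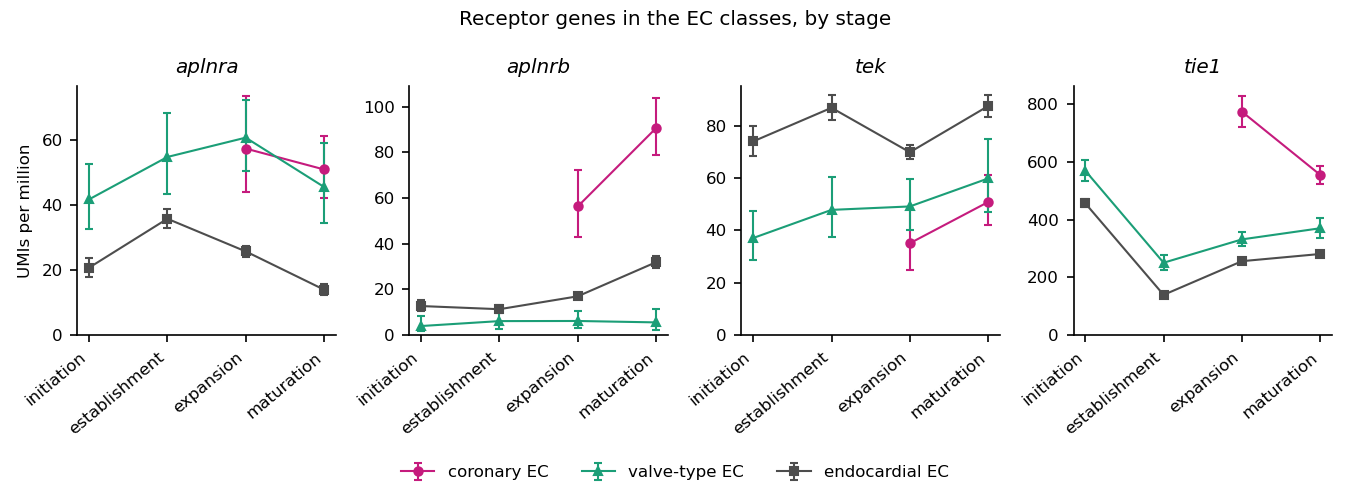
Levels of aplnra, aplnrb, tek and tie1 in CPM by stage in coronary (circles), valve-type (triangles) and endocardial ECs (squares), with 95% Poisson intervals and lines joining the stages of a class. tie1 and aplnrb are highest in coronary ECs and tek in endocardial ECs, and tie1 is lowest at establishment.

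Coronary ECs differed from endocardial ECs in most of the 8 genes. At expansion 6 of 8 were at least 2-fold higher in coronary ECs (apln, aplnra, aplnrb, tie1, angpt2a and esm1), where 15.3% of the 16967 genes tested were. At maturation 6 of 8 were again at least 2-fold higher (apln, aplnra, aplnrb, angpt1, angpt2a and esm1), where 13.2% of 15695 genes were. None of the 8 was at least 2-fold lower, against 9.84% and 13.1% of all genes. The median log2 ratio of the 8 genes was 1.66 and 1.72, and that of all genes tested 0.06 and 0.04. A gene was tested with at least 20 UMIs over both classes, and a count of 0 was set to 3 counts. The coronary and endocardial marker lists were drawn in part from a marker table the study made on these libraries. The lists and the 8 genes were picked with earlier results known. The contrast of the classes and the counts of the 8 genes are therefore no independent evidence.

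esm1 had the largest ratio of the 8 at expansion, with a log2 ratio of 8.88 (8.15 to 9.71) from 217 CPM in coronary and 0.46 CPM in endocardial ECs, and was 6th from the top among all genes. The coronary level of esm1 at expansion rested on few cells, as given above, which the interval does not cover. At maturation the log2 ratio of esm1 was 5.10 (4.56 to 5.68). angpt2a had log2 ratios of 4.47 (4.14 to 4.79) and 5.13 (4.72 to 5.56). These 2 genes lay in the top 1% of all tested genes at both stages. The ligand gene apln had log2 ratios of 2.37 (1.96 to 2.76) and 2.04 (1.70 to 2.36), and its receptor genes 1.16 at expansion and 1.86 at maturation (aplnra) and 1.73 and 1.50 (aplnrb). tie1 had 1.59 (1.49 to 1.70) at expansion and 0.98 (0.89 to 1.07) at maturation, just short of 2-fold. tek ran the other way, with log2 ratios of -0.99 (-1.50 to -0.53) and -0.78 (-1.07 to -0.51), and its expansion ratio was past 2-fold in 6 of 10 alternative settings. angpt1 had -0.23 (-1.56 to 0.83) at expansion, from 7 coronary UMIs, and 1.57 (1.08 to 2.03) at maturation.

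Depth and the share of barcodes with a thrombocyte marker UMI differed between the classes compared. The gate for coronary ECs asked for 4 of 9 markers, and the coronary ECs had median depths of 9765 and 7921 UMIs at expansion and maturation, against 4884 and 5356 UMIs in endocardial ECs. That gate did not exclude endocardial markers. Coronary ECs had medians of 53.1 and 32.0 endocardial-list UMIs per 10000, and 38.1 and 30.5 coronary-list UMIs. Endocardial ECs had 96.4 and 134 endocardial-list UMIs. A Scrublet-type doublet score marked 16.5% and 6.69% of coronary ECs, against 8.24% and 3.88% of endocardial ECs. The share marked in a whole library was fixed beforehand and grew with its barcode count. These values are thus not measured doublet rates and cannot be set against each other between stages. A UMI of itga2b, mpl or gp1bb, which are thrombocyte markers, was present in 19.8% and 15.5% of coronary ECs and in 2.22% and 5.55% of endocardial ECs. It was also present in 76.1%, 73.0%, 50.7% and 44.4% of red blood cells over the 4 stages. Whether such a UMI in ECs came from thrombocyte RNA was not tested. With the ECs that held such a UMI left out, apln was 57.9 and 42.3 CPM in coronary ECs and angpt1 at maturation 16.7 CPM. The same 6 genes stayed at least 2-fold higher at each stage. The part of depth in these ratios was not tested. At maturation 34 of the 52 coronary angpt1 UMIs came from 5 barcodes. ECs just outside the coronary gate, with 3 markers, had 11.3 and 57.0 CPM of angpt2a and 28.2 and 8.76 CPM of esm1 (27 barcodes at expansion and 37 at maturation).

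**Figure D4:**
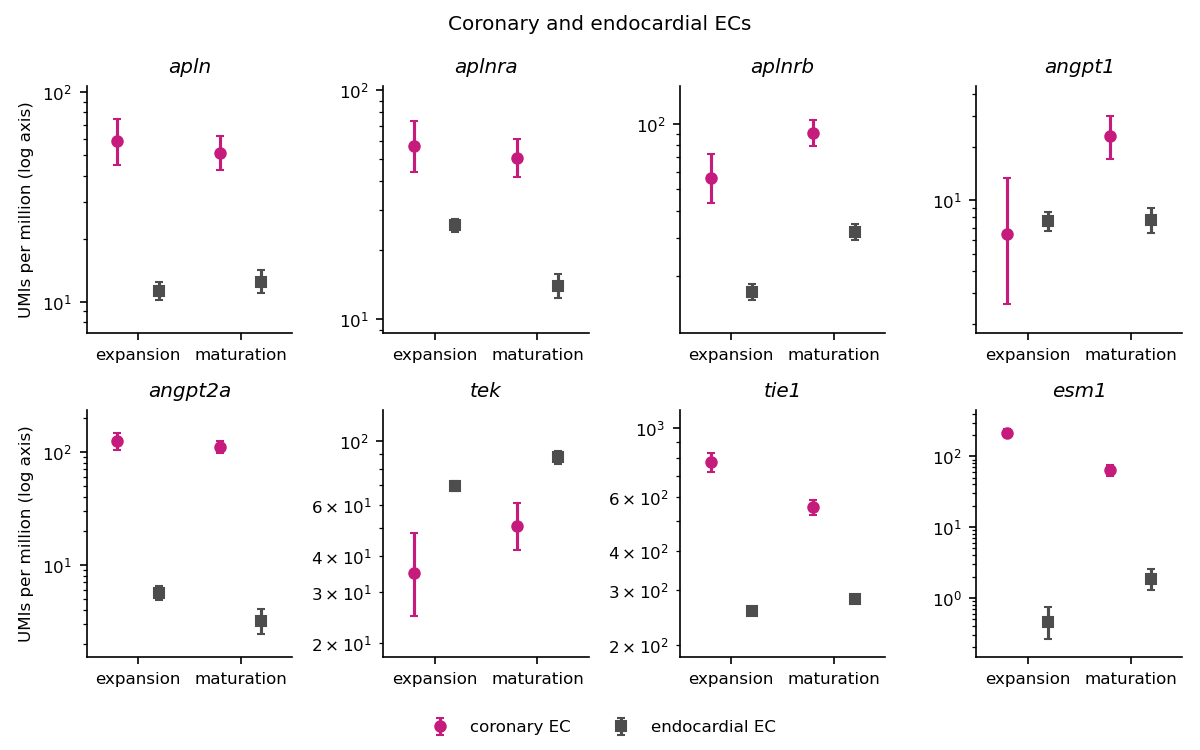
Levels of the 8 genes in coronary ECs (circles, left) and endocardial ECs (squares, right) at expansion and maturation, in CPM on log axes that differ between panels, with 95% Poisson intervals. angpt2a and esm1 are farthest apart, tek is lower in coronary ECs, and the intervals of angpt1 overlap at expansion.

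Valve-type ECs, marked by frzb, bmp3, wnt9a, ptn and cpamd8, shared the high aplnra of coronary ECs without their aplnrb, angpt2a or esm1 levels. aplnra was higher in valve-type than in endocardial ECs in all 4 libraries, with log2 ratios of 1.01, 0.61, 1.24 and 1.70. aplnrb was lower, with log2 ratios of -1.67, -0.88, -1.46 and -2.52, from 7, 9, 13 and 7 valve-type UMIs. Its interval at establishment, -2.04 to 0.07, held 0. tek was lower in all 4. At initiation it had 37.1 CPM in valve-type against 74.0 CPM in endocardial ECs (interval of the log2 ratio -1.39 to -0.63), and the later log2 ratios were -0.86, -0.51 and -0.55. tie1 was higher in all 4 at 0.32, 0.85, 0.37 and 0.40. Of the genes tested, 1 of 6, 3 of 8, 4 of 8 and 4 of 8 were at least 2-fold higher from initiation to maturation, where 9.27%, 10.5%, 13.7% and 13.5% of all genes were. At least 2-fold lower were 2, 1, 1 and 1 of them (aplnrb in 3 libraries, apln at initiation and angpt2a at establishment), where 11.1%, 9.76%, 7.41% and 10.3% of all genes were. The angpt2a ratio rested on 1 valve-type and 50 endocardial UMIs, and its log2 interval, -7.54 to 0.34, held 0. apln was higher in valve-type ECs from establishment on, with log2 ratios of 1.01, 1.40 and 1.28, and a thrombocyte marker UMI was present in 12.1% to 24.7% of valve-type ECs. Without those barcodes apln at maturation had 15.1 CPM in valve-type and 9.49 CPM in endocardial ECs and esm1 had 1.01 and 1.89 CPM, so that neither was at least 2-fold higher there. angpt1 at initiation then had 9.21 CPM in valve-type and 1.72 CPM in endocardial ECs, against 11.4 and 6.69 CPM with them. tie1 at initiation then had 454 and 432 CPM, against 570 and 457 CPM with them.

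Between CMs and endocardial ECs, apln and angpt1 stood on the CM side and the receptor genes on the endocardial side. apln was higher in CMs in all 4 libraries, with log2 ratios of 2.93, 2.70, 2.66 and 2.24 from initiation to maturation, and angpt1 with 4.27, 5.02, 3.95 and 2.52. aplnra, aplnrb, tie1 and tek were lower in CMs in all 4, with log2 ratios between -8.12 and -3.46. At least 2-fold higher were 3 of 7, 2 of 8, 3 of 8 and 2 of 8 genes, where 21.3%, 20.1%, 14.6% and 12.6% of all genes were, and lower 4, 5, 5 and 6 genes, where 40.5%, 41.7%, 50.4% and 59.9% of all genes were. The third higher gene was esm1 at initiation and expansion, from at most 34 UMIs in CMs.

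Between stages, the coronary ECs of maturation and expansion differed at least 2-fold in 2 of the 8 genes, where 14.3% of the 8946 genes tested did. esm1 was lower at maturation, with a log2 ratio of -1.78 (-2.09 to -1.47), and only 1.23% of genes had a lower ratio. Its level at expansion rested on few cells, as given above, which the interval does not cover. angpt1 was higher at 1.83 (0.69 to 3.21), from 52 UMIs at maturation and 7 at expansion, and at 0.51 with barcodes of several lineages kept. aplnrb had 0.69 (0.27 to 1.12) and tie1 -0.48 (-0.61 to -0.35). apln, aplnra and angpt2a had ratios between -0.18 and -0.16 with intervals that held 0, as did the interval of tek.

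In endocardial ECs, 3 of 8 genes differed at least 2-fold between maturation and initiation, all higher at maturation, where 42.4% of 16808 genes differed. They were aplnrb with a log2 ratio of 1.33 (1.04 to 1.62), angpt2a with 2.09 (0.96 to 3.46) and esm1 with 1.53 (0.27 to 3.07). The last pair rested on 60 and 35 UMIs at maturation and 7 and 6 at initiation, and esm1 at establishment was higher than at maturation. tie1 had -0.70 (-0.76 to -0.64), aplnra -0.57 (-0.84 to -0.29) and tek 0.24 (0.11 to 0.37). The share of the 8 genes past 2-fold was no larger than that of all genes. Between maturation and expansion, 1 of 8 differed in endocardial ECs (esm1, higher at maturation from 35 against 16 UMIs), where 20.9% of all genes did, and 0 of 4 in fibroblasts, where 16.4% did.

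In CMs, 4 of the 8 genes had enough UMIs to be tested between maturation and initiation, and all 4 differed at least 2-fold, where 49.5% of 13025 genes did. The median of all genes was -0.73, and the CM marker list took a median of 1126 of 10000 UMIs at maturation against 476 at initiation. angpt1 had a log2 ratio of -1.54 (-1.74 to -1.34), below that of all but 24.9% of genes. It was -1.44 with the CM marker, globin and mitochondrial UMIs left out of the totals. apln had -1.03 (-1.21 to -0.86), at percentile 39.7 of all genes, and was past 2-fold in 5 of 10 alternative settings. esm1 had no UMI in CMs at maturation and 34 at initiation, which is 5.14-fold lower with 0 set to 3 counts. The upper end of the interval of its log2 ratio was -1.98. tie1 had 2.65 (1.89 to 3.47) at levels under those of the barcodes with free RNA. With free RNA subtracted its log2 ratio was 0.90, with the initiation level of 0 set to 3 counts. That subtraction lowers EC genes in CMs by construction, as given above.

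**Figure D5:**
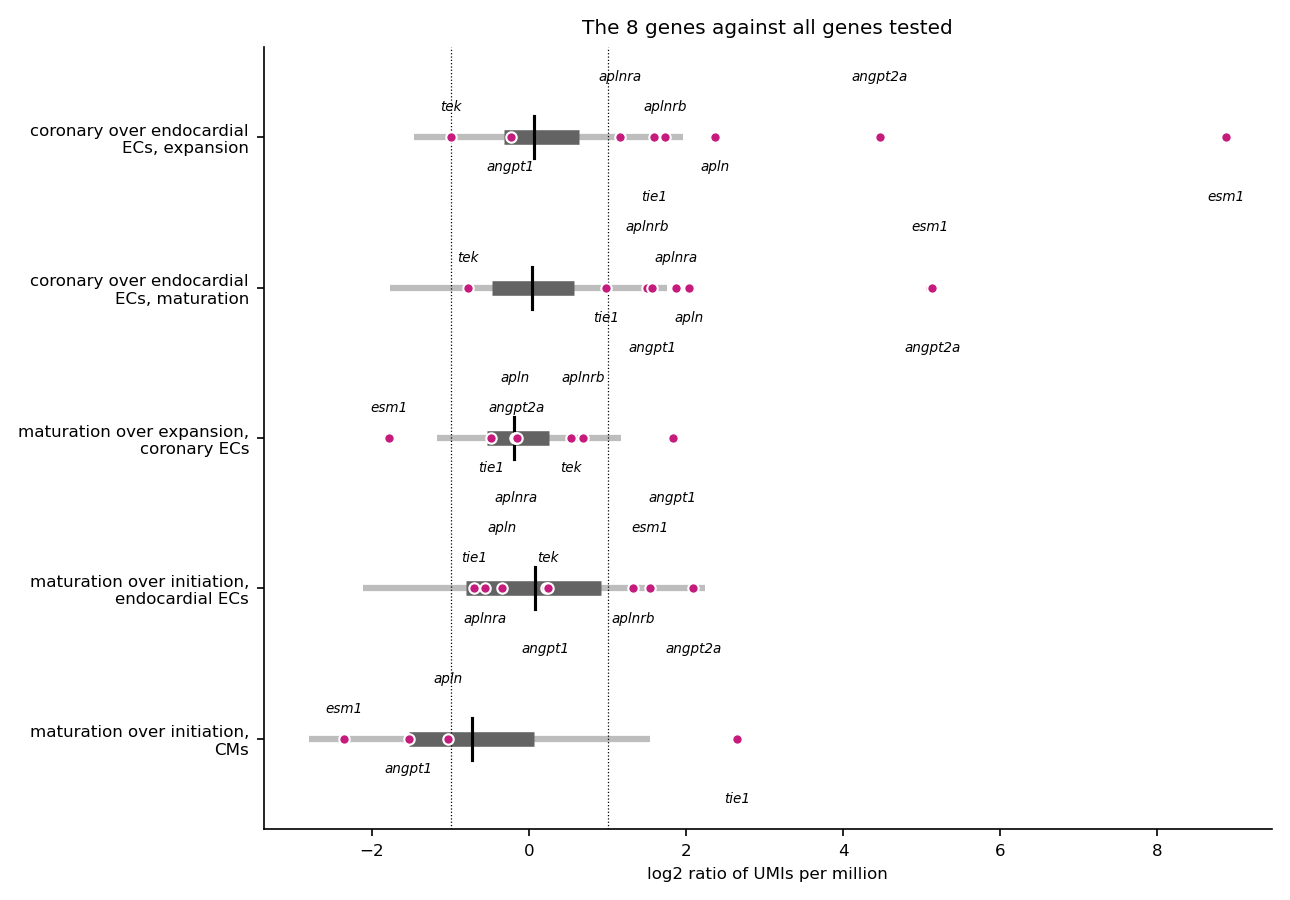
Log2 ratios of the 8 genes (points, those with at least 20 UMIs over both groups) in 5 comparisons, over the distribution of all genes tested (light bar 5th to 95th percentile, dark bar 25th to 75th percentile, tick the median). Dotted lines mark 2-fold, esm1 and angpt2a lie far above the bars in coronary over endocardial ECs, and most points lie within the bars in the stage comparisons of endocardial ECs and CMs.

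Further genes of the same pathways were set side by side in coronary and endocardial ECs, where 15.3% of all genes at expansion and 13.2% at maturation were at least 2-fold higher in coronary ECs. Of 8 further apelin pathway genes (a second ligand, processing enzymes, G protein and arrestin genes), 6 were tested. ece2a, an endothelin-converting enzyme gene, was at least 2-fold higher in coronary ECs at expansion, with 19.4 against 9.27 CPM, and none was at maturation, with none lower at either stage. Of 13 further genes of the Tie axis, 12 were tested, and 3 at expansion and 2 at maturation were at least 2-fold higher, with none lower. The one at expansion alone was svep1, from 3 coronary UMIs. foxo1a, a transcription factor held in check by Tie2 signalling in mammals, had 1877 CPM in coronary against 927 CPM in endocardial ECs at expansion and 1164 against 308 CPM at maturation. tnip2, whose mammalian product binds Tie2, had 24.9 against 1.91 CPM and 10.6 against 2.00 CPM. Of the other ligands, angpt4 had 4.62 against 8.98 CPM and 3.98 against 5.59 CPM, and angpt2b had too few UMIs to be tested.

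Of 9 genes tied to vessel sprouting, 7 were in the files under the names used, and 4 at expansion and 5 at maturation were at least 2-fold higher in coronary ECs, the fifth being nid2a, beside 15.3% and 13.2% of all genes. dll4, a Notch ligand of arterial and sprouting ECs, had 875 CPM in coronary against 365 CPM in endocardial ECs at expansion and 683 against 210 CPM at maturation. kdr, a VEGF receptor gene, had 894 against 417 CPM and 707 against 307 CPM. mcamb, a cell adhesion gene, had 348 against 163 CPM and 423 against 150 CPM. fscn1a, the gene of an actin-bundling protein, had 38.8 against 18.2 CPM and 62.3 against 25.1 CPM. unc5b, a netrin receptor gene of sprouting ECs in the mouse, was lower, with 12.0 against 67.7 CPM and 3.09 against 20.0 CPM.

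Over the 30 pairs of class and library, the genes with the pattern most like that of each of the 8 were found by Pearson correlation of log2(CPM + 10) among 15733 other genes. angpt2a was nearest to plvapa (r = 0.99), notchl and LOC101884756, and esm1 to kcnj2a (r = 0.97), LOC100333111 and CT033796.1. tie1 was nearest to cdh5, hyal2a and kdr (r = 0.97 to 0.96), of which cdh5 is a marker used to define the ECs. tek was nearest to zgc:64106, si:dkey-237i9.8 and SH3TC1 (r = 0.98 to 0.97). For aplnra these were fam168b (r = 0.92), tgfbr2b and cav1, for aplnrb BX936342.2 (r = 0.89), znf366 and cd81b, for apln hif1aa (r = 0.87), hacd3 and mtnr1ab, and for angpt1 nicn1 (r = 0.87), dachb and CR774192.1. Within the 8 genes the closest pairs were angpt2a and esm1 (r = 0.93), tie1 and tek (r = 0.92), aplnrb and angpt2a (r = 0.82), and apln and angpt1 (r = 0.76). aplnra and aplnrb had r = 0.13. Outside coronary ECs, angpt2a was at most 5.60 CPM and esm1 at most 8.20 CPM. With 10 CPM added, the correlations of these genes rest mainly on the points from coronary ECs. The correlation of apln and angpt1 includes thrombocytes at maturation, whose 2376 and 1773 CPM lay far above all other points. The points share libraries and depth, so these values describe the table and carry no p-value.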

How the data were processed

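Ventricles were dissociated and libraries made with the 10x Genomics 3′ v3.1 chemistry. The authors deposited the raw counts of UMIs for every barcode and gene, with no normalization, no cell calling and no doublet removal. Per the labels reads were processed with Cell Ranger 6.1.2 on GRCz11, the matrix headers name version 7.1.0, and Seurat 4 was used downstream. Total counts were 115624753, 123557700, 128056006 and 161798583 UMIs from initiation to maturation.

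Barcodes with at least 2500 UMIs and 600 genes were kept. A barcode was assigned to a class when it passed the marker gate of 1 lineage only (at least 3 or 4 markers of a list and, for the larger classes, a minimum share of UMIs). Barcodes of several lineages, 245 to 1232 per library, were left out as possible doublets, and free RNA was not subtracted. The members, lists and gates were chosen with earlier results of these data known, and the share minima after the marker distributions were seen. CPM came from summed counts, with exact 95% Poisson intervals, Clopper-Pearson intervals for shares and exact conditional binomial intervals for log2 ratios. A ratio of at least 2-fold was counted as called, among genes with at least 20 UMIs. The named similar genes were the 3 with the highest correlation among genes with at least 200 UMIs, and pathway genes were named when past 2-fold between coronary and endocardial ECs at both stages. angpt4, angpt2b, ece2a, svep1 and nid2a were named after their values were seen. The procedures were tested on simulated counts. Alternatives were 9 planned changes of barcode selection, gates, scaling, doublets and free RNA, and 1 added after the data were seen, which left out barcodes with a thrombocyte marker UMI. Python 3.11.15, numpy 2.4.6, scipy 1.17.1, pandas 2.3.3 and matplotlib 3.10.9 were used. Filtered clusters and cell names of the study were not used here, and no coordinates or sequences are given, since the annotation at hand was of another build.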

Additional observations from a re-analysis of the deposited data

Results flagged for a closer look

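Some stage differences ran in opposite directions in 2 cell classes, and the difference between the classes was not tested, since each stage was 1 library. For tie1, the log2 ratio of maturation over initiation was 2.65 in CMs and -0.70 in endocardial ECs, and that of maturation over expansion was -0.48 in coronary ECs and 0.13 in endocardial ECs. The CM levels of tie1 stood below those of barcodes with 10 to 100 UMIs in all 4 libraries. For esm1, the log2 ratio of maturation over initiation was -2.36 in CMs, with 0 UMIs at maturation set to 3 counts, and 1.53 in endocardial ECs. That of maturation over expansion was -1.78 in coronary ECs and 2.00 in endocardial ECs. The coronary level of esm1 at expansion rested on few cells. The endocardial values of esm1 rested on 35 UMIs at maturation, 16 at expansion and 6 at initiation.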

How the results depend on the processing

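No paired analysis was possible because each stage was 1 library. Ratios were recomputed for coronary over endocardial ECs at 2 stages and for the stage contrasts of endocardial ECs, CMs (both maturation over initiation) and coronary ECs, and none of these past 2-fold changed sign under any of the 10 alternatives. Ratios of valve-type ECs or CMs over endocardial ECs were not recomputed as such. From the recomputed levels, esm1 at maturation had 1.01 CPM in valve-type and 1.89 CPM in endocardial ECs without barcodes holding a thrombocyte marker UMI. With them it had 7.18 and 1.84 CPM, and the valve-type level rested on only 9 UMIs. Of the levels recomputed under alternatives, 2045 of 2376 stayed within the reported 95% interval, as did 322 of 360 ratios. The count of genes at least 2-fold higher in coronary than in endocardial ECs was 6 or 7 in every alternative. Of the genes at least 2-fold different between maturation and initiation in endocardial ECs there were 5 rather than 3 with Scrublet-marked barcodes left out, apln and angpt1 being added. In CMs there were 7 rather than 4 with barcodes of several lineages kept, and 2 with free RNA subtracted, where apln had -0.93 and tie1 0.90. The cause was not tested. The endocardial log2 ratio of angpt1 between maturation and initiation ranged between -1.01 and 1.58, and at initiation the endocardial levels of angpt1 and apln were 1.72 and 9.24 CPM without barcodes holding a thrombocyte marker UMI, against 6.69 and 15.8 CPM with them. For angpt1 the coronary log2 ratio of maturation over expansion was 0.51 with barcodes of several lineages kept. At most 1.44% to 25.0% of the UMIs of a class could be free RNA. The 2 stages with 3 and 4 coronary ECs limit what can be said of their early levels.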

Other observations

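Barcodes that passed no marker gate held 18.6%, 2.45%, 7.53% and 17.2% of the angpt1 UMIs of the 4 libraries, from initiation to maturation. The 174 such barcodes at initiation had 349 CPM of angpt1 (322 to 379), and 201 of the 584 UMIs came from 5 barcodes. At establishment, expansion and maturation the barcodes that passed no gate had 41.1, 55.4 and 74.5 CPM of angpt1. These barcodes were not clustered or named. Barcodes that passed the thrombocyte gate and another gate had 1307 CPM of apln and 782 CPM of angpt1 at maturation (70 barcodes), and 792 and 623 CPM at expansion (48 barcodes). The 4 such barcodes at initiation had 2476 and 1286 CPM. The 8 at establishment, 6 of which passed the epicardial or fibroblast gate, had only 54.8 and 18.3 CPM. Epicardial cells had 20.5, 18.3, 27.1 and 32.0 UMIs of the thrombocyte marker list per 10000 over the 4 stages. Fibroblasts had 18.7, 25.6 and 20.9 from establishment on, and thrombocytes 58.6 at maturation. The thrombocyte gate asked for at least 20. Its list holds thbs1b and fn1b beside itga2b, mpl and gp1bb. A UMI of itga2b, mpl or gp1bb was present in 8.73% of epicardial cells at maturation. Which genes of the list gave these levels was not tested. aplnr2, a further apelin receptor-like gene picked after its values were seen, was at most 1.77 CPM in every class of at least 50 barcodes except pericytes, where it had 4.81 CPM at expansion and 28.9 CPM at maturation, from 2 and 11 UMIs.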
